A study of Mus musculus with 4 samples.

Results

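Transcript levels of 10 genes that encode regulators of the luminal lineage of the mammary gland and its hormone receptors (Gata3, Foxa1, Elf5, Ehf, Elf3, Esr1, Pgr, Prlr, Stat5a and Kit) were examined in mouse mammary tumor cell lines. The genes were picked by symbol from the 38713 genes with a value, and values of these libraries were already known when they were picked. Their levels are therefore described here and no p-value is given for a member, though 9 of them were part of the test over all genes. Each line was grown from 1 tumor and gave 1 library, so the genotype and the tumor from which a line came cannot be told apart within a pair of lines. The JNK_WT group (n = 2, replicates 1 and 2) carried Wap-Cre+/- with Trp53 LoxP/LoxP, labelled p53-/-. The JNK_KO group (n = 2, replicates 1 and 3) carried the same alleles together with Mapk8 LoxP/LoxP and Mapk9 LoxP/LoxP, labelled p53-/- JNK-/-, and so lacked the kinases JNK1 and JNK2. All lines therefore shared the loss of Trp53, the C57BL/6 strain, an origin in female mice that had been bred, since the Wap promoter drives Cre in luminal epithelium from late pregnancy and lactation onward, and growth as adherent cultures without drug treatment.

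The mammary gland is a bilayered epithelium in which luminal cells line the duct and basal cells surround them. GATA3 maintains the luminal lineage, FOXA1 opens chromatin for the estrogen receptor in hormone-sensing luminal cells, and the ETS factor ELF5 acts with prolactin receptor and STAT5A signalling to build milk-secreting alveolar cells. Estrogen and progesterone act on the hormone-sensing cells, which signal to their neighbours through secreted factors, and the receptor tyrosine kinase KIT marks luminal progenitors.

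RNA levels are given as FPKM, mapped fragments scaled by transcript length and library total, so that levels of different genes are already scaled for length. A difference is JNK_KO minus JNK_WT on the log2(FPKM + 1) scale, which understates the change of genes with low values. The targeted genes followed the labels, with Mapk8 at 19.1 and 23.9 FPKM in the JNK_WT lines and 4.27 and 4.3 FPKM in the JNK_KO lines, and Mapk9 at 24.3 and 29.7 against 8.66 and 12.6 FPKM. Trp53 was listed at 1.55 and 4.15 FPKM in JNK_WT and 4.28 and 5.72 FPKM in JNK_KO, and values of a whole gene do not tell deleted from remaining exons. Over the 12998 genes tested with limma, 0 genes (0%) passed an adjusted p under 0.05 together with a log2 difference over 0.75 in size, the 9 tested members included, and the smallest adjusted p was 0.0515. At an unadjusted p under 0.05, 992 genes passed, 617 of them (4.75%) higher in the JNK_KO lines and 375 (2.89%) lower. Relative sequencing depth, estimated from 1172 genes with few reads, differed by up to 1.4 times between libraries. The epithelial identity of the cultures was visible in the luminal markers, mostly keratins and junction proteins. Their summed level was 5170 and 6040 FPKM in JNK_WT replicates 1 and 2 and 2600 and 4910 FPKM in JNK_KO replicates 1 and 3. Of these sums, Lcn2, which is neither, gave 59.1 and 1890 FPKM in JNK_WT and 642 and 1100 FPKM in JNK_KO. In these bulk samples, fewer cells of a type and less RNA per cell cannot be told apart.

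Gata3 was the member with the widest separation between the genotypes. Its level was 1.79 FPKM in JNK_WT replicate 1, 1.18 FPKM in JNK_WT replicate 2, 31.6 FPKM in JNK_KO replicate 1 and 38.6 FPKM in JNK_KO replicate 3. Both JNK_KO lines were thus high and both JNK_WT lines low, with no overlap. The group means were 1.48 ± 0.43 FPKM (SD, n = 2) in JNK_WT and 35.1 ± 4.96 FPKM (SD, n = 2) in JNK_KO, a 23.7-fold ratio and a log2 difference of 3.87 ± 0.31 (SE). With each line left out in turn the difference stayed between 3.69 and 4.04. Within its library, Gata3 ranked low among the tested genes in the JNK_WT lines, at percentiles 12.4 and 8.22, and at percentiles 73.5 and 77.9 in the JNK_KO lines. Of the 12998 genes tested, 933 (7.18%) likewise had both JNK_KO values above both JNK_WT values with a log2 difference over 0.75. Gata3 was the only one of the 9 members tested that met this description, and 0 members met it in the opposite direction, which 645 genes (4.96%) did.

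**Figure D1:**
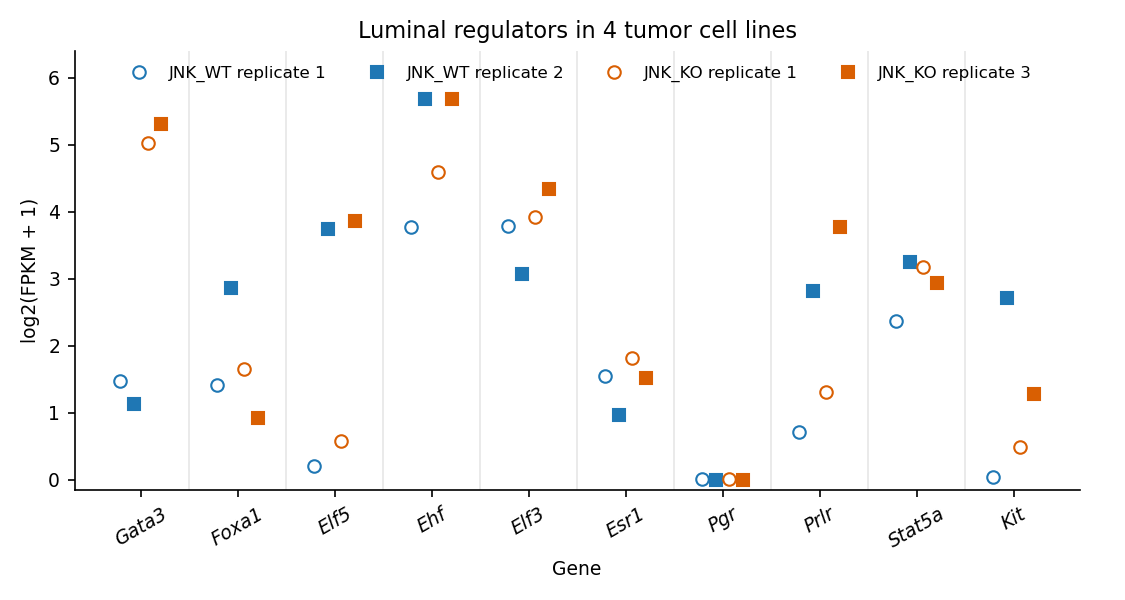
Level of each of the 10 luminal regulators on the log2(FPKM + 1) scale (vertical axis) by gene (horizontal axis). Circles are replicate 1 of each group and squares are JNK_WT replicate 2 and JNK_KO replicate 3, in blue for JNK_WT and orange for JNK_KO, with 1 library per point. Gata3 separates by color, from 1.18 and 1.79 FPKM to 31.6 and 38.6 FPKM, whereas Elf5 separates by symbol, from 0.158 and 0.5 FPKM to 12.4 and 13.5 FPKM.

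Gata3 is annotated in GENCODE M21 on the minus strand of mm10 (GRCm38), at chr2:9857078-9890034, and 3 further annotated rows overlap that span. All 3 were also low in the JNK_WT lines and higher in the JNK_KO lines; they were picked out after their values were seen. The antisense gene Gm13256 (chr2:9877256-9878869, plus strand) had 0.582 and 0.134 FPKM in JNK_WT replicates 1 and 2 and 2.35 and 3.73 FPKM in JNK_KO replicates 1 and 3, a log2 difference of 1.57 ± 0.37 (SE). The row 9230102O04Rik (chr2:9883041-9889540, minus strand) had 0.0553 and 0.0466 FPKM against 3.53 and 3.98 FPKM, a difference of 2.18 ± 0.29 (SE). The row 4930412O13Rik (chr2:9881252-9883921, plus strand) had 0.0405 and 0.0116 FPKM against 1.48 and 1.25 FPKM, a difference of 1.20 ± 0.29 (SE). Use of strand in counting was not stated in the sources used here, and 9230102O04Rik lies on the same strand as Gata3. Reads of Gata3 and of these overlapping rows therefore cannot be told apart. Beyond the overlapping rows, the other 4 tested genes with a start within 500 kb differed little, with log2 differences of 0.29 for Taf3, which encodes a subunit of the transcription factor complex TFIID, 0.17 for Itih2, and 0.13 for both Atp5c1 and Kin. The median over the 1002 tested genes of chromosome 2 was 0.12.

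**Figure D2:**
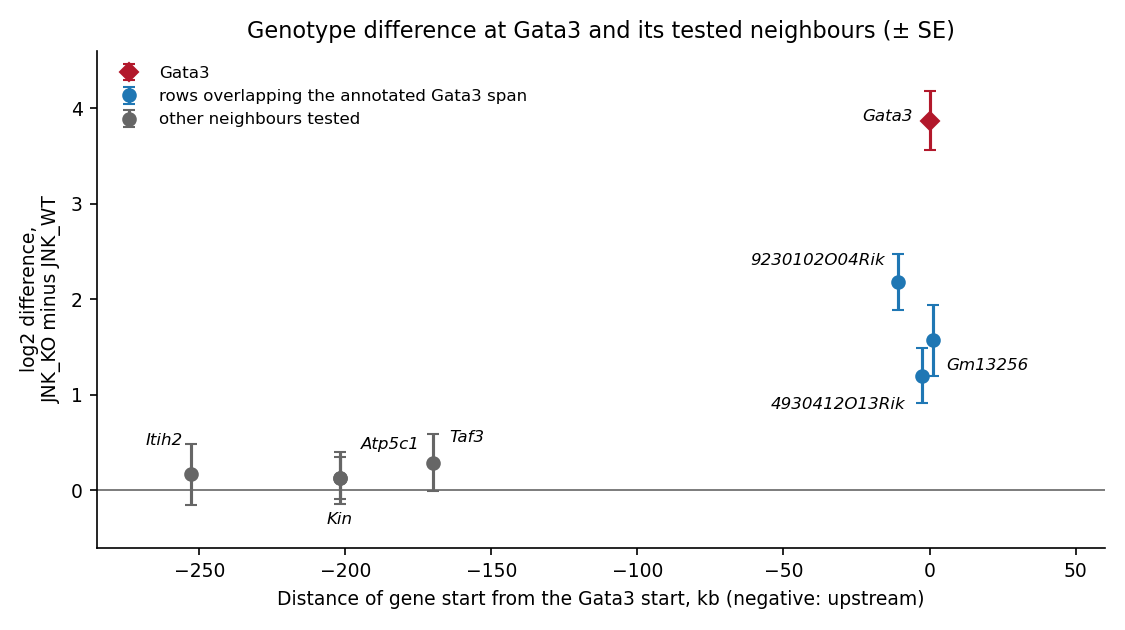
Log2 difference between the groups, JNK_KO minus JNK_WT of log2(FPKM + 1), with SE bars (vertical axis), against the distance of each gene's start from the RefSeq Gata3 start in kb, negative upstream (horizontal axis). The red diamond is Gata3 at 3.87, the 3 blue points are rows that overlap its annotated span at 1.20 to 2.18, and the grey points are the other tested neighbours at 0.13 to 0.29.

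The 250 bases before the Gata3 start are shown because Gata3 and its antisense partner, whose exon overlaps this window, were both higher in the JNK_KO lines. The sequence comes from RefSeq (GRCm38.p6, chr2:9878601-9878850, minus strand) and reads 5′ to 3′ toward the start.
Gata3: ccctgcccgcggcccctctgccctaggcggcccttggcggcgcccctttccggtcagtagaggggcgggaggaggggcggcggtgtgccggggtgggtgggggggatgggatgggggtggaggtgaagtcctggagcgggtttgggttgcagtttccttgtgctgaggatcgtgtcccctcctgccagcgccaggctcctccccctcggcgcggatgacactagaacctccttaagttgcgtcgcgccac
Neither strand of this window held the AP1 motif TGANTCA, the GATA motif AGATAA, the ETS motif AGGAAG, the STAT motif TTCNNNGAA or the FOX motif TGTTTAC. Among 32817 promoter windows of 250 bases, these motifs occurred on either strand in 6.75%, 9.99%, 29.5%, 7.01% and 3.16%.

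Foxa1, the pioneer factor of hormone-sensing luminal cells, was low throughout. It reached 1.65 FPKM in JNK_WT replicate 1, 6.26 FPKM in JNK_WT replicate 2, 2.14 FPKM in JNK_KO replicate 1 and 0.886 FPKM in JNK_KO replicate 3. JNK_WT replicate 2 stood above the other lines and the groups overlapped. The log2 difference was -0.85 ± 0.62 (SE), and it went from -0.12 without JNK_WT replicate 2 to -1.58 without JNK_WT replicate 1. Foxa1 lies at chr12:57540628-57546916 (minus strand), and the median over the 412 tested genes of chromosome 12 was -0.41.

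Of the 7 other GATA and FOXA genes, 2 were tested and 0 were called, with 0 at an unadjusted limma p under 0.05. Foxa2, a paralog of Foxa1 best known from endoderm, had 0.199 and 1.26 FPKM in the JNK_WT lines and 3.24 and 2.19 FPKM in the JNK_KO lines, a log2 difference of 1.16 ± 0.44 (SE, limma adjusted p = 0.66). Gata6 had 8.38 and 0.858 FPKM against 3.04 and 0.596 FPKM, and its level thus followed neither genotype nor Gata3. The remaining 5 genes of the list had under 1 FPKM in at least 3 of the 4 libraries.

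Elf5, the ETS factor that specifies alveolar luminal cells, separated the lines in another way. Its level was 0.158 FPKM in JNK_WT replicate 1, 12.4 FPKM in JNK_WT replicate 2, 0.5 FPKM in JNK_KO replicate 1 and 13.5 FPKM in JNK_KO replicate 3. One line of each genotype was therefore high and the other low, by 78.5-fold between the JNK_WT lines and 26.9-fold between the JNK_KO lines. The log2 difference between genotypes was 0.24 ± 1.63 (SE), against 3.53 within JNK_WT and 3.27 within JNK_KO. By comparison, the median gene tested differed in size by 0.43 within JNK_WT and by 0.33 within JNK_KO.

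Ehf, an ETS factor of epithelial cells encoded beside Elf5, had the highest mean level of the 10 genes. It measured 12.6 FPKM in JNK_WT replicate 1, 50.5 FPKM in JNK_WT replicate 2, 23.2 FPKM in JNK_KO replicate 1 and 50.4 FPKM in JNK_KO replicate 3. The same lines as for Elf5 were high, by 4.02-fold among JNK_WT and 2.17-fold among JNK_KO, and the genotype difference was 0.42 ± 0.77 (SE). Elf5 (chr2:103411688-103450989, plus strand) and Ehf (chr2:103263433-103303278, minus strand) are neighbours whose starts lie 108.4 kb apart. Of the tested genes within 500 kb, 7 for Elf5 and 8 for Ehf, each had only the other as a neighbour that was higher by more than 0.75 in both JNK_WT replicate 2 and JNK_KO replicate 3 than in replicate 1 of its group. Cat, which encodes catalase, had 52.8 and 39.6 FPKM in the JNK_WT lines and 34 and 70.6 FPKM in the JNK_KO lines, and Abtb2 had 7.03 and 3.56 against 4.45 and 2.39 FPKM. The genotype differences of these 2 genes and of Pdhx, Apip, Nat10, Caprin1 and Cd44 lay between -0.49 and 0.28.

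Elf3, a further epithelial ETS factor, varied least of the 3. Its level was 12.8 FPKM in JNK_WT replicate 1, 7.41 FPKM in JNK_WT replicate 2, 14.2 FPKM in JNK_KO replicate 1 and 19.2 FPKM in JNK_KO replicate 3. Both JNK_KO values lay above both JNK_WT values, though narrowly, which was the case in one direction or the other for 4548 (35.0%) of the genes tested and for 2 of the 9 tested members, Gata3 and Elf3. The means were 10.1 ± 3.81 and 16.7 ± 3.53 FPKM (SD, n = 2 each), a 1.66-fold ratio, and the log2 difference of 0.71 ± 0.38 (SE) ranged from 0.35 to 1.06 with a line left out. Elf3 lies at chr1:135253575-135258568 (minus strand).

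Of the 22 other ETS genes, 16 were tested and 0 were called by limma, with 2 at an unadjusted p under 0.05. Their median log2 difference was 0.10, beside 0.013 over all genes tested, and lay between -0.09 without JNK_KO replicate 3 and 0.31 without JNK_KO replicate 1. Spib, an ETS factor best known in lymphoid cells, had 0.356 and 0.195 FPKM in the JNK_WT lines and 4.3 and 11.2 FPKM in the JNK_KO lines, a difference of 2.66 ± 0.50 (SE, limma adjusted p = 0.299). Etv5 and Etv4, members of the PEA3 group that are induced by ERK signalling, had differences of -1.32 ± 0.35 (SE, limma adjusted p = 0.458) and -1.13 ± 0.59 (SE, limma adjusted p = 0.819). For Etv5 the groups did not overlap, at 62.2 and 90.7 FPKM against 36.8 and 23.7 FPKM. For Etv4 they did, at 55.5 and 135 FPKM against 56.8 and 26.9 FPKM.

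**Figure D3:**
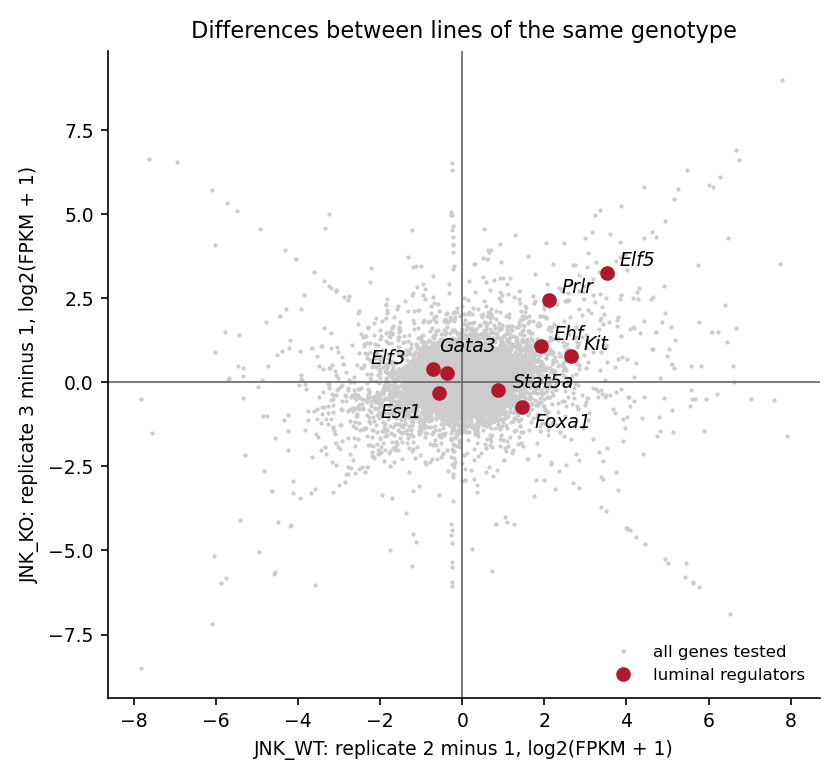
Difference in log2(FPKM + 1) between the lines of each genotype, JNK_WT replicate 2 minus 1 (horizontal axis) and JNK_KO replicate 3 minus 1 (vertical axis), for all 12998 genes tested (grey) and the 9 tested luminal regulators (red). Elf5 lies far into the upper right at 3.53 and 3.27, with Prlr, Ehf and Kit in the same quadrant, while Gata3, Elf3 and Esr1 lie near the origin.

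The hormone receptors Esr1 and Pgr were low or at the limit of detection in every line. Esr1, the estrogen receptor gene at chr10:4611593-5005614 (plus strand), had 1.91 FPKM in JNK_WT replicate 1, 0.951 FPKM in JNK_WT replicate 2, 2.52 FPKM in JNK_KO replicate 1 and 1.85 FPKM in JNK_KO replicate 3. The groups overlapped, with a log2 difference of 0.41 ± 0.36 (SE). Pgr, the progesterone receptor gene and a classical estrogen target (chr9:8899833-8968611, plus strand), had 0.00604 FPKM in JNK_WT replicate 1 and 0.00652 FPKM in JNK_KO replicate 1 and was listed at 0 in both other lines. It was the 1 member that did not reach 1 FPKM in 2 libraries and so was not tested.

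Of 19 genes that respond to estrogen or progesterone in the gland, 11 were tested and 0 were called by limma, with 1 at an unadjusted p under 0.05. In 3 genes (Wnt4, Tnfsf11 and Stc2) the JNK_KO lines were above the JNK_WT lines without overlap by more than 0.75, as in 7.18% of all genes tested, and in 1 gene (Nrip1) they were below, as in 4.96%. The median log2 difference of the list was 0.41, from 0.29 without JNK_WT replicate 1 to 0.81 without JNK_KO replicate 3. Tnfsf11, which encodes RANKL, the secreted factor through which progesterone drives neighbouring cells to divide, had 0.048 FPKM in JNK_WT replicate 1, 0.707 FPKM in JNK_WT replicate 2, 21.4 FPKM in JNK_KO replicate 1 and 15.2 FPKM in JNK_KO replicate 3. Its difference of 3.83 ± 0.40 (SE, limma adjusted p = 0.138) was close in size to that of Gata3, in lines with Pgr near 0. Wnt4, another secreted progesterone target, had 1.45 and 0.55 FPKM against 4.2 and 2.18 FPKM, a difference of 1.06 ± 0.44 (SE, limma adjusted p = 0.698). Ly6d, a surface marker of luminal cells, had 0.188 and 15.1 FPKM against 11.9 and 45.6 FPKM, and the groups overlapped.

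Among 18 other nuclear receptors and cofactors, 16 were tested and 0 were called, with 0 at an unadjusted limma p under 0.05, and their median difference was 0.04, or -0.13 without JNK_KO replicate 3. Vdr, the vitamin D receptor gene, followed the lines as Elf5 did, with 5.31 and 40.5 FPKM in JNK_WT replicates 1 and 2 and 24.8 and 63.4 FPKM in JNK_KO replicates 1 and 3. Nr3c1, the glucocorticoid receptor gene, had 13.1 and 12.9 FPKM against 20.7 and 18.5 FPKM.

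Prlr, the prolactin receptor gene at chr15:10177238-10349180 (plus strand), followed the line pattern of Elf5. Its level was 0.636 FPKM in JNK_WT replicate 1, 6.04 FPKM in JNK_WT replicate 2, 1.49 FPKM in JNK_KO replicate 1 and 12.7 FPKM in JNK_KO replicate 3. The second line of each genotype was higher than replicate 1 by 9.5-fold in JNK_WT and by 8.52-fold in JNK_KO. The genotype difference was 0.78 ± 1.12 (SE) and lay between -0.45 and 2.01 with a line left out.

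Stat5a, which encodes the transcription factor activated downstream of the prolactin receptor (chr11:100859351-100885169, plus strand), did not follow Prlr in the JNK_KO lines. It measured 4.18 FPKM in JNK_WT replicate 1, 8.51 FPKM in JNK_WT replicate 2, 7.99 FPKM in JNK_KO replicate 1 and 6.64 FPKM in JNK_KO replicate 3. The groups overlapped, and the difference was 0.24 ± 0.41 (SE). Between the lines it was 0.87 in JNK_WT and -0.23 in JNK_KO.

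Of 16 further genes of prolactin, JAK2 and STAT5 signalling, 15 were tested and 0 were called by limma, with 1 at an unadjusted p under 0.05. JNK_KO values were above JNK_WT values by more than 0.75 without overlap in 3 (Jak2, Socs1 and Ghr) and below in 0, beside 7.18% and 4.96% of all genes tested. The median difference was 0.52, but -0.02 without JNK_WT replicate 1. Jak2, the kinase gene of the pathway, had 17.3 and 8.84 FPKM in the JNK_WT lines and 67.9 and 21.6 FPKM in the JNK_KO lines, a difference of 1.56 ± 0.66 (SE, limma adjusted p = 0.713). Socs1, a feedback inhibitor gene, had 1.6 and 1.74 FPKM against 5.24 and 3.64 FPKM, a difference of 1.01 ± 0.33 (SE, limma adjusted p = 0.56). Socs3, another inhibitor gene, had 5.82 and 23.6 FPKM against 22.2 and 36.5 FPKM and overlapped between the groups.

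Transcripts of 7 milk proteins, the end products of the alveolar programme, were low in 3 of the 4 lines, and 0 of them reached 1 FPKM in 2 libraries. Their summed level was 9.12 and 1.2 FPKM in JNK_WT replicates 1 and 2 and 2.25 and 40.1 FPKM in JNK_KO replicates 1 and 3. Picked out after their values were seen, Glycam1 supplied 30.9 FPKM of the sum in JNK_KO replicate 3 and Csn3, encoding kappa casein, 8.23 FPKM of that in JNK_WT replicate 1. Of the lines with high Elf5 and Prlr, JNK_WT replicate 2 thus had the lowest and JNK_KO replicate 3 the highest milk protein sum of the 4 lines.

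Kit (chr5:75574916-75656722, plus strand) was nearly silent in JNK_WT replicate 1 at 0.0292 FPKM and highest in JNK_WT replicate 2 at 5.52 FPKM. It had 0.403 FPKM in JNK_KO replicate 1 and 1.42 FPKM in JNK_KO replicate 3, both between the JNK_WT values. The genotype difference was -0.49 ± 0.97 (SE), and it was 0.04 with a pseudocount of 0.1 in place of 1. Between the lines the difference was 2.66 in JNK_WT and 0.79 in JNK_KO. KIT also marks mast cells, and all 8 mast cell markers examined were under 1 FPKM in every library, 6 of them at 0 throughout, with sums of 0.035 to 0.0579 FPKM in the JNK_WT lines and 0.443 to 0.614 FPKM in the JNK_KO lines.

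The only tested gene with a start within 500 kb of that of Kit was Pdgfra, the gene of a related receptor tyrosine kinase of mesenchymal cells. It had 0.325 and 0.183 FPKM in the JNK_WT lines and 24.7 and 7.82 FPKM in the JNK_KO lines, a pattern unlike that of Kit. Of 12 genes for the KIT ligand and signalling proteins, 12 were tested and 0 were called, with 0 at an unadjusted limma p under 0.05, and the median difference was -0.07, or 0.03 without JNK_KO replicate 1 and 0.07 without JNK_WT replicate 2. Ptpn6, which encodes a phosphatase that dampens KIT signalling, had 155 and 42.6 FPKM against 27.7 and 26.7 FPKM, a difference of -1.55 ± 0.65 (SE, limma adjusted p = 0.71). The Src family kinase genes Fyn and Lyn had differences of -0.75 ± 0.45 and 0.71 ± 0.40 (SE). For both the groups were separate but adjoining, at 20 and 9.61 against 6.51 and 9.55 FPKM for Fyn and 2.66 and 5.12 against 5.78 and 7.83 FPKM for Lyn.

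**Figure D4:**
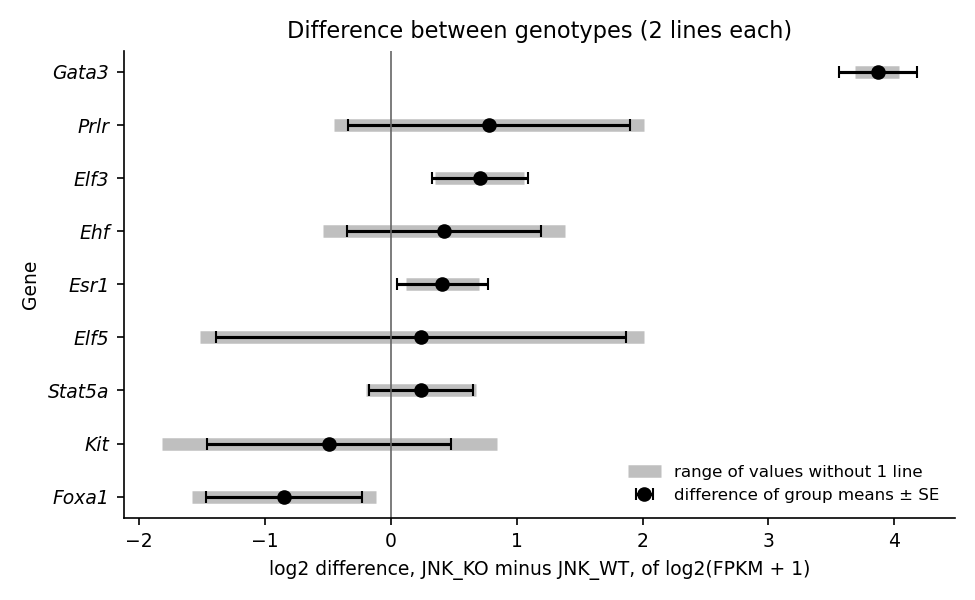
Difference between group means, JNK_KO minus JNK_WT of log2(FPKM + 1) (horizontal axis), for each of the 9 tested luminal regulators (vertical axis), from 2 lines per group. Points are differences with SE bars, and grey bands span the values with 1 line left out. Gata3 stands at 3.87 with a narrow band, whereas the bands of Elf5, Ehf, Prlr, Kit and Stat5a cross 0.

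Elf5, Ehf, Prlr and Kit shared a pattern, and were higher by more than 0.75 on the log2 scale in JNK_WT replicate 2 than in JNK_WT replicate 1 and in JNK_KO replicate 3 than in JNK_KO replicate 1. Of the genes tested, 457 (3.52%) showed it, among them these 4 of the 9 tested members. The members had been picked with these values known, so the share is a description. Differences over 0.75 in either direction between the JNK_WT lines were seen in 6 members and 3569 genes (27.5%), and between the JNK_KO lines in 4 members and 2411 genes (18.5%). Of 16 basal markers, 11 were tested and 4 of them, Krt14, Krt17, Trp63 and Mme, showed the line pattern, while others such as Itga6, Tagln and the contractile gene Acta2 did not. The sums of the list were 165 and 1030 FPKM in JNK_WT replicates 1 and 2 and 187 and 489 FPKM in JNK_KO replicates 1 and 3, with Krt14 as their largest part in the second line of each genotype. Krt14, a basal keratin gene, had 7.34, 443, 26.7 and 313 FPKM in the same order of lines, and Trp63, the basal master regulator gene, had 0.0706, 21.9, 1.16 and 6.58 FPKM. Krt5, a further basal keratin gene that was not tested, was high only in JNK_WT replicate 2. It had 0.0316, 61.9, 0.11 and 0.205 FPKM in that order. Of 16 luminal markers, 14 were tested and 4 of them, Epcam, Cd24a, Prr15l and Lcn2, showed the same line pattern. Others did not, and Krt19 and Itga2 were lower in the second line of each genotype. Krt19 had 66.6, 11.1, 22.5 and 16 FPKM and Itga2 had 21.3, 1.93, 10.4 and 5.39 FPKM, in that order. The lines high in Elf5 were thus the higher ones of their genotype in some basal and some luminal markers but not in others. The part of cell types in the pattern was not tested. Kit in JNK_KO replicate 3, at percentile 7.53 of the tested genes, was only just past the 0.75 limit and still low.

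RefSeq gave promoter windows for 9 of the 10 genes, 15 windows in all, and none for Ehf. The stretches before the starts of the other 3 genes of the line pattern are shown to compare members that moved together. They read 5′ to 3′ on the plus strand of GRCm38.p6, at chr2:103423818-103424061 for the second Elf5 start, chr15:10176988-10177237 for Prlr and chr5:75574737-75574915 for Kit, and stop before annotated exons of the same gene. Capitals mark the ETS motif AGGAAG or its complement CTTCCT.
Elf5: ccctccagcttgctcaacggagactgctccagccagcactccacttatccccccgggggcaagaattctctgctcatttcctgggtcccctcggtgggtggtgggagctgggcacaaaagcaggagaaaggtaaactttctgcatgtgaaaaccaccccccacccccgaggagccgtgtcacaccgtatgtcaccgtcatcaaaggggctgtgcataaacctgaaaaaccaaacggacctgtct
Prlr: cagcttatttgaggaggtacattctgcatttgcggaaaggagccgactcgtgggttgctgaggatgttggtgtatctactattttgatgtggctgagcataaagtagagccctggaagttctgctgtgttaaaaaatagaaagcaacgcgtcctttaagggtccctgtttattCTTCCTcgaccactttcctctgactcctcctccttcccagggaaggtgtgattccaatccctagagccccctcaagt
Kit: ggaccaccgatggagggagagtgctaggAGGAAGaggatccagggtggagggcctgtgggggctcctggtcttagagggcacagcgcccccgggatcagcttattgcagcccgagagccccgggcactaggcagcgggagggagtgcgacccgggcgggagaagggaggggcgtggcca
The motif lies 77 bases before the start in Prlr and 222 bases before it in Kit, and the Elf5 stretch held none of the 5 motifs searched. Among all 15 member windows, 8 held the ETS motif, beside 29.5% of all promoter windows, and 2 of these 8 were overlapping Kit windows that share 1 motif. Both counts cover whole windows, also where annotated exons of the same gene begin within them. The ETS motifs of Esr1 and of both Stat5a windows lie past the start of such an exon. The STAT motif was in 2 windows (of Esr1 and Prlr), the FOX motif in 2 (of Foxa1 and Prlr), the AP1 motif in 1 (at a further Prlr start) and the GATA motif in 0.

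Taken by level, the order of the 10 genes differed from line to line. In JNK_WT replicate 1 Elf3 and Ehf led and Gata3 was the fifth, and in JNK_WT replicate 2 Ehf and Elf5 led and Gata3 was the eighth. Gata3 ranked first in JNK_KO replicate 1, ahead of Ehf and Elf3, and second in JNK_KO replicate 3, behind Ehf. Pgr was last in every line. The levels of the 10 genes summed to 35.7 and 98.7 FPKM in the JNK_WT lines and 84.1 and 145 FPKM in the JNK_KO lines. By mean level over the 4 lines the order was Ehf at 34.2, Gata3 at 18.3, Elf3 at 13.4, Stat5a at 6.83, Elf5 at 6.63, Prlr at 5.21, Foxa1 at 2.73, Kit at 1.84, Esr1 at 1.81 and Pgr at 0.00314 FPKM. Only the last step, from Esr1 to Pgr, held in all 4 lines, and every other pair of neighbours in this order changed places in at least 1 line.

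Of 32 other luminal regulators with a value, 26 were tested and 0 were called, with 0 at an unadjusted limma p under 0.05. The groups were separate by more than 0.75 in 2 of them, Mybl1 and Hey1, both higher in JNK_KO, a share near the 7.18% of all genes tested. The median difference was 0.17 and turned to -0.25 without JNK_WT replicate 1 and to -0.16 without JNK_KO replicate 3. The line pattern of Elf5 was seen in 7 of the 26, beside 3.52% of all genes tested. Among the 7 were the epithelial factor genes Grhl2 and Esrp2, the progenitor factor gene Sox9 and the Notch pathway genes Hey1, Hes1 and Notch3. Hes1, a Notch target gene, had 21.9 and 110 FPKM in JNK_WT replicates 1 and 2 and 14.5 and 37.7 FPKM in JNK_KO replicates 1 and 3. Irx5, a homeobox gene, had 0.65 and 10.5 against 6.1 and 15.4 FPKM. Tfap2c, which encodes the luminal factor AP-2 gamma, was high only in JNK_WT replicate 2, at 15.3 FPKM, beside 0.171, 0.412 and 1.29 FPKM in the other lines.

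Levels of markers of other cell types were compared with the same lines. Of 16 luminal markers, 14 were tested and 0 were called, with 0 at an unadjusted limma p under 0.05. Krt8 and Epcam were lower and Muc1 higher in the JNK_KO lines by more than 0.75 without overlap, beside 4.96% and 7.18% of all genes tested. The median difference was -0.44, and it was -0.07 without JNK_KO replicate 1 and -0.85 without JNK_KO replicate 3. Of 13 fibroblast and mesenchymal markers, 8 were tested and 0 were called, with 4 at an unadjusted limma p under 0.05. Pdgfra, Pdgfrb, Dcn and Zeb1 were higher and Twist1 lower in the JNK_KO lines by more than 0.75 without overlap. These were 4 and 1 of the 8 tested, beside 7.18% and 4.96% of all genes tested. The median was 1.39, but 0.65 without JNK_WT replicate 2. The sums of the list overlapped, at 380 and 86.8 FPKM in the JNK_WT lines and 651 and 354 FPKM in the JNK_KO lines. Vim, the vimentin gene, gave 331 and 47.2 FPKM of these sums in JNK_WT and 500 and 159 FPKM in JNK_KO. Its groups overlapped as well. Single markers differed widely, and those given here were picked out after their values were seen. The collagen gene Col1a1 was between 0.374 and 0.527 FPKM in every line, and Col1a2 was highest in JNK_WT replicate 1, at 10.3 FPKM. Dcn had 0.43 and 0.389 FPKM in the JNK_WT lines and 79.7 and 162 FPKM in the JNK_KO lines. Some of these markers thus moved with the same groups as Gata3, and their part in the Gata3 difference was not tested. Sums of the 9 leukocyte markers were between 3.4 and 22.3 FPKM, of the 7 endothelial markers between 0.804 and 1.5 FPKM, and of the 6 adipocyte markers between 0.043 and 0.622 FPKM.

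Likeness between genes was measured as the root mean square difference of the 4 log2(FPKM + 1) values after centring each gene on its mean, where 0 means the same profile. The tested genes most like Gata3 were Ifi27l2a at 0.19, Mir324 at 0.23, Fas at 0.25, Clca2 at 0.27 and mmu-mir-7034 at 0.29. Ifi27l2a, an interferon-induced gene, had 2.08 and 1.01 FPKM in the JNK_WT lines and 27.1 and 46.8 FPKM in the JNK_KO lines. Fas, a death receptor gene, had 0.478 and 0.81 against 19.4 and 21 FPKM, and Clca2 had 0.0221 and 0.0742 against 10.8 and 10.5 FPKM. The tested genes most like Elf5 were Rassf4 at 0.03, Barx2 at 0.15, Mir215 at 0.16, Gm25965 at 0.20 and Gm24811 at 0.21. Rassf4 had 6.54, 83.1, 8.79 and 89.1 FPKM in JNK_WT replicates 1 and 2 and JNK_KO replicates 1 and 3, and the homeobox gene Barx2 had 0.056, 9.16, 0.172 and 13.1 FPKM. Rows of short RNAs in both sets rest on few reads. Among the members themselves the most alike were Elf3 and Esr1 at 0.30, then Ehf and Prlr at 0.52 and Esr1 and Stat5a at 0.52, while the member nearest to Gata3 was Elf3 at 1.59.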

How the data were processed

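RNA of 4 cultured mouse mammary tumor cell lines was sequenced as 1 library each. The authors trimmed single-end reads with Trimmomatic, sampled them with seqtk, aligned them to mm10 (GRCm38) with TopHat2 2.0.14 and Bowtie2, and deposited FPKM estimated with Cufflinks 2.2.1. The annotation and the use of strand are not given in the sources used here. Cufflinks divides reads shared by overlapping transcripts by an estimate, so such rows can trade reads. The table held 38741 rows, of which 27 with symbols turned into dates and 1 with no value were left out, leaving 38713 genes. FPKM are not counts, so no count model or counting interval was used. Relative depth was estimated from the steps between low values.

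Genes with FPKM of at least 1 in at least 2 libraries (12998) were tested on log2(FPKM + 1) with limma 3.58.1 in R 4.3.3 (two-sided, intensity trend), and p-values were adjusted by the Benjamini-Hochberg method over all of them. A call needed an adjusted p under 0.05 and an absolute log2 difference over 0.75. Each SE of a log2 difference is the moderated standard error of limma, which also draws on the spread of the other genes tested. Cuffdiff, which the study used on its alignments, was not run here. Separate tumors gave each line, and p-values measure the spread between these lines. A permutation test of 2 lines against 2 cannot give a p below 0.333. Alternatives were pseudocounts of 0.1 and 0.5, no filter or a mean FPKM of at least 5, upper quartile and quantile scaling, limma without the trend, an adjusted p of 0.1, and each line left out.

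The members and the 15 gene lists (209 genes, 208 with a row, 1 under an older symbol) were chosen with earlier results of these data known, and members carry no p-value. Named genes were the 10 members, the targeted genes, the 3 tested genes of each regulator and pathway list with the largest absolute log2 difference, the 5 genes most like Gata3 and Elf5 each, and tested genes within 500 kb of the Elf5 and Ehf starts. A gene that this rule names is not reported here, though it is part of the counts. Any other gene named was chosen after its values were seen. Positions came from GENCODE M21 (GRCm38), and promoter sequences from RefSeq (GRCm38.p6), over 250 bases before each start. Python 3.11.15, pandas 2.3.3, numpy 2.4.6 and matplotlib 3.10.9 were used.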

Additional observations from a re-analysis of the deposited data

How the results depend on the processing

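Each group held 2 lines, depth was known only in relative terms, and low levels such as those of Kit and Pgr rest on few reads. The limma count of 0 called genes became 10 (9 higher in JNK_KO) with a pseudocount of 0.1, 14 (11 higher) with 0.5, 14 (10 higher) without the intensity trend and 25 (20 higher) at an adjusted p of 0.1, and stayed at 0 with each line left out. The count of 1578 genes with separate groups and a difference over 0.75 was within 1.5 times of that under the other settings and ranged from 2097 to 2955 with a line left out, where a lone line makes separation easier. The members so counted went from 1 to 2 with a pseudocount of 0.1 (Gata3 and Elf3) and ranged from 1 to 5 with a line left out: Gata3 alone without JNK_KO replicate 3, joined by Foxa1, Elf3 and Kit without JNK_WT replicate 1, by Elf5, Ehf, Prlr and Kit without JNK_WT replicate 2, and by Foxa1, Elf5, Elf3 and Prlr without JNK_KO replicate 1. The Gata3 difference was 4.50 with a pseudocount of 0.1, 4.18 with 0.5, 3.85 after upper quartile scaling and 3.76 after quantile scaling. Member differences changed sign in 2 of 51 values (Elf5 at -0.03 after quantile scaling and Kit at 0.04 with a pseudocount of 0.1) and in 8 of 36 values with a line left out. List medians changed sign in 2 of 65 values, both after quantile scaling (other GATA and FOXA genes at -0.05 and nuclear receptors at -0.06), and in 13 of 44 with a line left out. The causes were not tested. No paired analysis was possible, since the lines came from separate tumors. A shared replicate number does not link a JNK_WT line to a JNK_KO line.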

Other observations

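The region around Stat5a held the most tested genes of the 10 members. Of 29 tested genes with a start within 500 kb of that of Stat5a, 7 had separate groups with a log2 difference over 0.75 in size (Jup, Nt5c3b, Acly, Dhx58, Naglu, Tubg2 and Coa3, picked out after their values were seen), beside 1578 (12.1%) of all genes tested. Dhx58 was higher in the JNK_KO lines, at 1.57, and the rest were lower, from -0.79 to -1.24. Over all genes tested, 7.18% were so separated with higher and 4.96% with lower JNK_KO values. The median difference of the 29 genes was -0.24, beside -0.20 over the 1043 tested genes of chromosome 11 and 0.24 for Stat5a itself.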
